A study of Mus musculus with 4 samples.

Results

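The germline genes described here are 10 named mouse genes whose products work in germ cells and which somatic cells normally keep silent: Ddx4, Sycp1, Sycp3, Mael, Tdrd1, Dazl, Stk31, Tex101, Slc25a31 and Piwil2. They were chosen by name with earlier results of these data known, so the shares given below describe them and test nothing. All 10 were found among the 21887 protein-coding genes on the primary chromosomes. Their chromatin was read from peak lists of chromatin immunoprecipitation sequencing (ChIP-seq) of 2 histone marks in peritoneal macrophages of 8-week-old C57BL/6 mice. The cells had been drawn into the peritoneum with thioglycollate broth and allowed to adhere. They were then exposed for 24 h to lipopolysaccharide (LPS), a bacterial cell wall component that activates macrophages, or to phosphate-buffered saline (PBS) as the control. The 4 groups were H3K9me3 with LPS, H3K9me3 with PBS, H3K4me3 with LPS and H3K4me3 with PBS. Each held 1 library, so no difference between LPS and PBS has a replicate check, and none was tested. The labels do not say how many mice each library pools.

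Trimethylation of histone H3 at lysine 9 (H3K9me3) marks heterochromatin and silenced repeats, and trimethylation at lysine 4 (H3K4me3) marks active and poised promoters. Many germline genes have CpG-rich promoters, a class that most somatic cells leave open. In somatic cells of the mouse they are known to be shut by DNA methylation, by H3K9 methyltransferases such as SETDB1 and G9a, and by a variant Polycomb complex. That complex holds the DNA-binding proteins E2F6 and MGA with its partner MAX, which recognise the motifs TCCCGC and CACGTG.

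The 10 genes cover several roles. Ddx4 encodes the mouse vasa helicase of germ granules, Piwil2 a Piwi protein that binds small piRNAs, Mael and Tdrd1 further proteins of the piRNA pathway, and Stk31 a Tudor domain protein of germ cells. Sycp1 and Sycp3 encode parts of the synaptonemal complex, which joins homologous chromosomes in meiosis. Dazl encodes an RNA-binding protein of germ cells, Tex101 a surface glycoprotein of male germ cells, and Slc25a31 the ADP/ATP carrier of their mitochondria.

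The promoter windows of 9 of the 10 genes were found in the RefSeq promoter table (build GRCm38.p6, the same coordinates as mm10). Each window runs from 250 bases before the annotated transcription start to 50 bases after it, and of several starts the one furthest upstream in that table was taken. The 6 windows whose start lay within 1 kb of an H3K9me3 peak are shown first, since the results below turn on them, and 2 windows of genes with no peak of either mark near the start follow for comparison. Capitals mark CACGTG, which reads the same on both strands, and TCCCGC or its reverse complement GCGGGA, and no match of the 2 motifs overlapped another.
Dazl, minus strand, chr17:50293571-50293870: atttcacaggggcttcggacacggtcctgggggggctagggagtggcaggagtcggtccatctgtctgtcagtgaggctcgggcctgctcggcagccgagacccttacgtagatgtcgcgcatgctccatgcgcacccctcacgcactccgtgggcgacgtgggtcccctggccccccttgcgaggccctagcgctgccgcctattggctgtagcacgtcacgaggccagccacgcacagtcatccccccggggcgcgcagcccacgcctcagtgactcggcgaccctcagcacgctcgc
Ddx4, minus strand, chr13:112652261-112652560: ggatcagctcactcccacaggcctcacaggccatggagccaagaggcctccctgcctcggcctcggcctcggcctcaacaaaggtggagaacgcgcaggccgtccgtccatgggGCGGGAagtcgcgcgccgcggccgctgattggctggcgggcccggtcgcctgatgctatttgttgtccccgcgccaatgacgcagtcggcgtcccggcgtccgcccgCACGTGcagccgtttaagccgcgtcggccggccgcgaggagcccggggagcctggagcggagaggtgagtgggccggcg
Sycp1, minus strand, chr3:102936051-102936350: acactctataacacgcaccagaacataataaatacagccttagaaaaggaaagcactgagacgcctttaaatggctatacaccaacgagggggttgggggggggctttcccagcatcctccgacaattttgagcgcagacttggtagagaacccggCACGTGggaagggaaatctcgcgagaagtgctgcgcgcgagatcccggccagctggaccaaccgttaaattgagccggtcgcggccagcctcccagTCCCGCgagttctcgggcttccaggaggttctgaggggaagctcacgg
Mael, minus strand, chr1:166238695-166238994: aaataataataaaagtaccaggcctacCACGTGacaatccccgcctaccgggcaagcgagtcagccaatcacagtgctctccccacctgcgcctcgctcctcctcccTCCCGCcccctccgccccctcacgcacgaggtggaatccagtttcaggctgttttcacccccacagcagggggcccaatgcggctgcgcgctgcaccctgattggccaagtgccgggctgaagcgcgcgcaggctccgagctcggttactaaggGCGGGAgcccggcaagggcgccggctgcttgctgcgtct
Tdrd1, plus strand, chr19:56825959-56826258: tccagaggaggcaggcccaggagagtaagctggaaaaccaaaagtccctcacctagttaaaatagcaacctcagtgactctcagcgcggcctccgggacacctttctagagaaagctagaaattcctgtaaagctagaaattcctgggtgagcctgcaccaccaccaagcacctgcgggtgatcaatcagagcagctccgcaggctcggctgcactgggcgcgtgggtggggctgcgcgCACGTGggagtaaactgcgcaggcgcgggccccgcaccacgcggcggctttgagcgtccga
Slc25a31, plus strand, chr3:40708621-40708920: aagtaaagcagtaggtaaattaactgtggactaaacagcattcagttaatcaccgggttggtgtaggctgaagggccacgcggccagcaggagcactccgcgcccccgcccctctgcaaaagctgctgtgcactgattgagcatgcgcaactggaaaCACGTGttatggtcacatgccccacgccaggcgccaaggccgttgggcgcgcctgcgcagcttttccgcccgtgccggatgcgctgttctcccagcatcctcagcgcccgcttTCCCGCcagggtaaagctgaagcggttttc
Stk31, plus strand, chr6:49395289-49395588: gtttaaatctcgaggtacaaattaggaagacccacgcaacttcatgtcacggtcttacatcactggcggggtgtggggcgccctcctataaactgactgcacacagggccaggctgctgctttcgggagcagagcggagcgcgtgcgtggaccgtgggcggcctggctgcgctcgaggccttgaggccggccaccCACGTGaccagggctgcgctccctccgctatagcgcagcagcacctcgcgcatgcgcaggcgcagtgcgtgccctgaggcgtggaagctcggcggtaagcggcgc
Tex101, minus strand, chr7:24672001-24672300: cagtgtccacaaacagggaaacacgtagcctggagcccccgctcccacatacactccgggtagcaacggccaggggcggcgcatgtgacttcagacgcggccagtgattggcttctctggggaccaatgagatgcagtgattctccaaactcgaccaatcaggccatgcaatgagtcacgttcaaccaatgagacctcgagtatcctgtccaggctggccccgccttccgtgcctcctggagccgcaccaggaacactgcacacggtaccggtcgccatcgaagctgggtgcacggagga

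All 9 windows were rich in CpG. They held 15 (Sycp3) to 38 (Ddx4) CpG sites with a median of 22, against a median of 13 in the windows of 17492 protein-coding genes. The CpG ratio, which is the number of CpG sites over the number that the C and G content would give, ran from 0.666 in Sycp3 to 0.978 in Ddx4. All 9 lay above 0.6, as did 48.4% of all windows. CACGTG stood in 7 of the 9, against 7.91% of all windows, and Dazl and Tex101 were the exceptions. Sycp3 held it 2 times. TCCCGC or GCGGGA stood in 5 of the 9 (Ddx4, Sycp1, Sycp3, Mael and Slc25a31), against 25.8% of all windows. Both motifs contain a CpG, and the shares of all windows are not matched for CpG content. Of 230 genes with no H3K4me3 near the start and a ratio of 0.6 or more, 35 held CACGTG and 68 held TCCCGC or GCGGGA. Germline genes are part of these counts. A match says that these letters are present and not that a protein binds there.

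**Figure D1:**
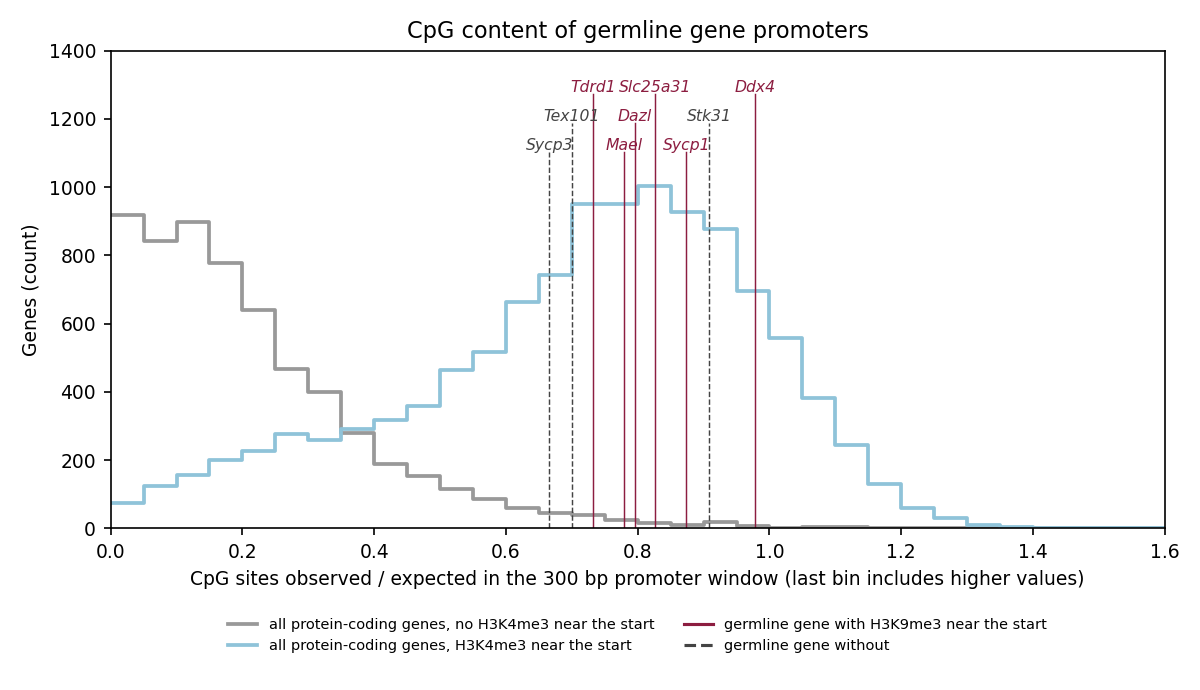
Number of protein-coding genes (vertical axis) by the CpG ratio of the promoter window (horizontal axis), as lines for genes with and without an H3K4me3 peak within 1 kb of a start. Vertical lines give the 9 germline genes, solid where an H3K9me3 peak lay near the start and dashed where none was listed. The 9 lie between 0.666 and 0.978, where most genes carry H3K4me3.

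The libraries held 28586946 (H3K9me3 with LPS), 27727997 (H3K9me3 with PBS), 26748289 (H3K4me3 with LPS) and 29681491 (H3K4me3 with PBS) tags after the caller's filter. Peaks had been called by the authors in each library alone and without an input library, and a gene that a list does not name was under the caller's threshold there, which is no absence of the mark. H3K9me3 peaks were weak and narrow, with a median of 17 tags and 258 bp in LPS and 16 tags and 245 bp in PBS, and they held 1.62% of the tags in LPS and 1.69% in PBS. Of them, 33.7% in LPS and 22.4% in PBS overlapped an H3K4me3 peak of the same treatment. All 10 macrophage markers examined (Adgre1, Csf1r, Spi1 and others) had H3K4me3 at a gene end in both lists, against 60.3% of all protein-coding genes. Markers of other peritoneal cells had it in both lists at 1 of 9 T cell genes, 4 of 10 B cell genes, 1 of 10 neutrophil genes and 3 of 10 mesothelial and fibroblast genes. In PBS taken alone, 7 of the 10 mesothelial and fibroblast genes had it, against 3 in LPS. Near starts, at least 1 list had it at 4 of 4 mesothelial and fibroblast, 4 of 6 B cell, 2 of 7 T cell and 4 of 10 neutrophil genes. These counts do not show that the libraries held macrophages alone. In a library made from many cells, a mark on few cells and a weak mark on all cells cannot be told apart.

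H3K9me3 was listed on a larger share of the germline genes than of protein-coding genes at large, and in 5 of them it lay on the start. Peaks overlapping the gene body or 1 kb around it were found at 8 of the 10 genes in LPS, against 28.1% of all protein-coding genes, and at 5 of the 10 in PBS, against 25.6%. The 5 genes of the PBS list (Ddx4, Sycp1, Mael, Tdrd1 and Dazl) were also in the LPS list, which makes 5 of 10 in both, against 16.9%. Sycp3, Stk31 and Slc25a31 were listed in LPS only, and Tex101 and Piwil2 in neither. Long genes have more room for a peak. Among genes of 13.7 to 118 kb, the lengths of 9 of the 10, the shares were 34.3% in LPS, 31.4% in PBS and 19.7% in both.

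Around annotated starts the gap to the background was wider. Of the 9 genes with an annotated start, 6 had an H3K9me3 peak within 1 kb of it in LPS, against 14.6% of all genes, and 5 in PBS, against 11.6%. In both lists it was 5 of 9, against 7.04%. A start of the promoter table lay inside the peak in all 5 of these genes and both libraries, though at Ddx4 the outer gene end did not. Among genes with H3K9me3 on the body in both lists, 42.2% had it near a start in both, whereas all 5 germline genes did.

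**Figure D2:**
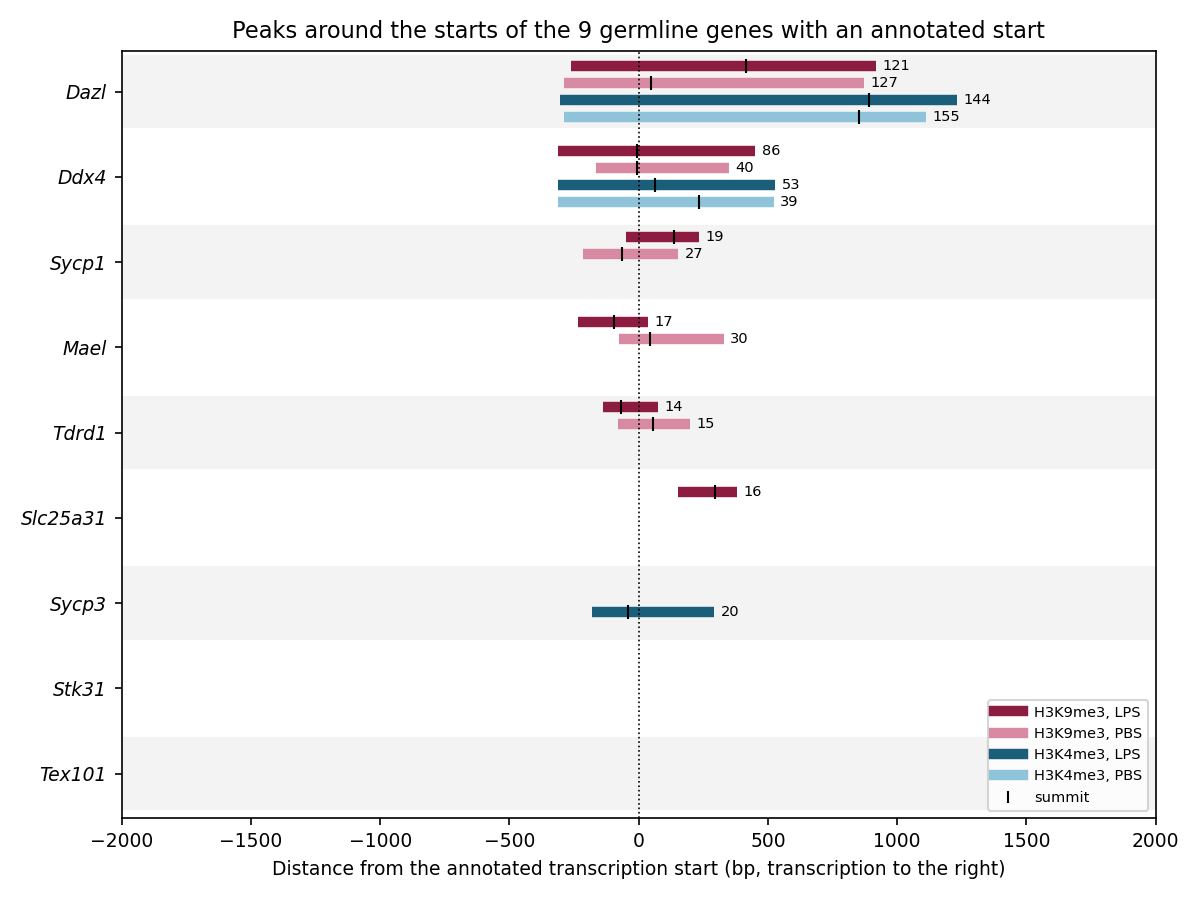
Peaks (bars) within 2 kb of the 5′-most annotated start of the 9 germline genes, by distance from that start in bp, with black ticks at the summits and the number of tags beside each bar. H3K9me3 bars of LPS and PBS lie on the start in 5 genes, 2 of which also carry H3K4me3.

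Dazl carried the most H3K9me3 of the 10 genes. The gene lies at chr17:50279393-50293620, and 1 peak over its start held 121 tags in LPS and 127 tags in PBS. The libraries were level, with a log2 ratio of LPS to PBS per filtered tag of -0.11 (exact 95% interval of counting error -0.49 to 0.26). The peak was 1177 bp wide in LPS and 1161 bp in PBS, which was 4.56 times (LPS) and 4.74 times (PBS) the median width of its list. By the caller's score, which is minus 10 times the base 10 logarithm of the p-value, it ranked 142 of 17369 in LPS (score 425) and 98 of 19279 in PBS (score 469). Among genes with H3K9me3 near a start, it ranked 26 of 2562 in LPS and 14 of 2024 in PBS by tags. Its promoter window shown above holds 28 CpG sites and neither motif.

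Ddx4 (chr13:112598333-112652633) had 86 H3K9me3 tags in LPS and 40 tags in PBS in 1 peak, with the summit 5 bp (LPS) and 6 bp (PBS) upstream of the annotated start. That start, from the promoter table, lies inside the gene as the gene table draws it. The summits lay 318 bp (LPS) and 317 bp (PBS) inside the upper gene end, which neither peak reached. The tag count was higher in LPS, with a log2 ratio of 1.06 (0.50 to 1.64). The peak was 763 bp wide in LPS and 517 bp in PBS, and per covered kb the ratio was 0.50. With 1 library each this compares 2 libraries and not 2 conditions. The score ranked 164 of 17369 in LPS and 772 of 19279 in PBS. CACGTG begins 29 bases upstream of the start and lies within this peak in both libraries.

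Sycp1 (chr3:102818499-102936100) and Mael (chr1:166201385-166238744) had smaller peaks at the start. Sycp1 had 19 tags in LPS and 27 tags in PBS there, with a log2 ratio of -0.55 (-1.48 to 0.35). Mael had 17 tags in LPS and 30 tags in PBS, with a ratio of -0.86 (-1.81 to 0.04). Both were higher in PBS, by no more than counting error allows. The scores were 73.7 in LPS and 111 in PBS for Sycp1, and 63.9 in LPS and 122 in PBS for Mael.

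Tdrd1 (chr19:56826171-56870012) had the weakest start peak of the 5, with 14 tags in LPS and 15 tags in PBS. The scores of 52.2 in LPS and 50.9 in PBS were close to the lowest listed, 50.01 in LPS and 50 in PBS. A second, stronger peak lay inside the gene, 50.3% (LPS) and 50.2% (PBS) of the way along it, with 37 tags in LPS and 36 tags in PBS. Another, of 14 tags, was listed in LPS only. Slc25a31 (chr3:40708871-40726094) had 1 peak of 16 tags in LPS, 152 bp downstream of the start at its nearer edge, and none in PBS.

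**Figure D3:**
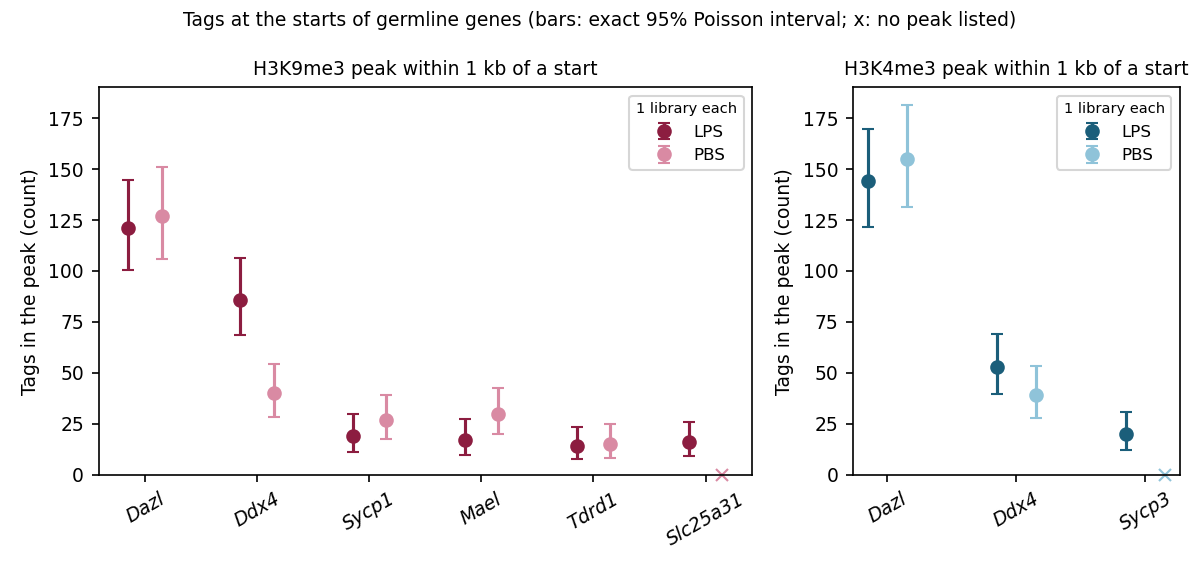
Tags in the peak within 1 kb of the annotated start, for H3K9me3 (left) and H3K4me3 (right), with LPS and PBS side by side and exact 95% Poisson intervals as bars. Crosses mark genes with no listed peak. Dazl and Ddx4 stand above the other genes in both marks, and LPS exceeds PBS beyond the intervals at the H3K9me3 peak of Ddx4 only.

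The remaining H3K9me3 peaks lay inside genes, were listed in LPS only, and held 12 to 17 tags. Sycp3 (chr10:88459587-88473236) had 1 peak of 14 tags 12.0 kb downstream of its start, where the gene Chpt1 also lies, so the peak cannot be given to either gene. Stk31 (chr6:49395506-49469506) had 3 peaks of 12, 13 and 13 tags, spread over 27.9%, 48.4% and 74.0% of its length, with scores of 50.3 to 51.9. Sycp1 had 2 further peaks of 15 and 17 tags 103 kb downstream of its start. Counted over the whole gene, Sycp1 had 51 tags in LPS and 27 tags in PBS, a log2 ratio of 0.87 (0.17 to 1.6) that was -0.019 per covered kb. The sign at its start thus differed from that over the whole gene.

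Neither Tex101 (chr7:24668012-24672050), the shortest of the 10 at 4.04 kb, nor Piwil2 (chr14:70372477-70436898) had a listed H3K9me3 peak, and no peak of either mark lay within 10 kb of Tex101. Stk31 had none near its start in either library, although its window above holds 29 CpG sites and CACGTG. The window of Dazl, the gene with the most tags at its start, held no CACGTG.

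H3K4me3 was rarer at the germline genes than at other genes. A peak within 1 kb of either gene end was listed for 3 of the 10 in LPS (Ddx4, Dazl and Sycp3), against 61.5% of all protein-coding genes, and for 2 in PBS (Ddx4 and Dazl), against 63.3%. In both lists it was 2 of 10, against 60.3%. Counted near annotated starts, the same genes had it, which makes 3 of 9 in LPS, against 63.2%, 2 of 9 in PBS, against 64.7%, and 3 of 9 in at least 1 list, against 65.7%. Dazl had 144 tags in LPS and 155 tags in PBS, a log2 ratio per filtered tag of 0.04 (-0.29 to 0.38). On that scale its libraries did not differ beyond counting error. Ddx4 had 53 tags in LPS and 39 tags in PBS, with a ratio of 0.59 (-0.03 to 1.23). The median of all 22219 H3K4me3 regions shared by the lists was -0.31. Relative to that median the ratio was 0.35 at Dazl and 0.90 at Ddx4, with no interval computed, so the reading depends on the scaling. Sycp3 had 20 tags over its start in LPS with a score of 50.1, at the edge of the list, and no peak in PBS.

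Inside the genes, 3 of them had weak H3K4me3 peaks away from any start or end. Sycp1 had 25 and 23 tags in PBS, and Stk31 19 tags in PBS. Piwil2 had 25 tags in LPS, 34.7 kb from its upper end. The PBS peak of 25 tags in Sycp1 spans the place of the pair of H3K9me3 peaks of the LPS library, and the PBS peak of Stk31 spans that of the last of its 3. The strong H3K4me3 peaks 4.1 kb upstream of Tdrd1 (165 tags in LPS, 283 tags in PBS) and beyond the upper end of Piwil2 (280 tags in LPS, 382 tags in PBS) overlap the neighbouring genes Ccdc186 and Polr3d and were not counted. Peaks of 19 tags in LPS and 39 tags in PBS 3.1 kb upstream of Slc25a31 also lay outside the window.

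At Dazl and Ddx4 both marks occupied the same stretch. In both treatments the H3K9me3 peak lay wholly within the H3K4me3 peak, sharing 1177 bp in LPS and 1161 bp in PBS at Dazl, and 763 bp in LPS and 517 bp in PBS at Ddx4. At Dazl the H3K4me3 summits lay 890 bp (LPS) and 853 bp (PBS) downstream of the start, and the H3K9me3 summits 415 bp (LPS) and 48 bp (PBS) downstream. These are counts over many cells, so both marks on the same molecules cannot be told apart from cells that carry one or the other.

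Many promoters with H3K4me3 also carried an H3K9me3 peak, 27.9% of 11497 genes in at least 1 list and 10.5% in both, so the balance of the marks was examined. It is given as the log2 ratio of H3K9me3 to H3K4me3 tags near the start, each per filtered tag of its library. Over genes with both peaks its median was -3.68 in LPS (2459 genes) and -4.20 in PBS (1922 genes). Dazl stood at -0.35 in LPS and -0.19 in PBS, and Ddx4 at 0.60 in LPS and 0.13 in PBS. Only 1.38% of genes in LPS and 0.832% in PBS had a higher value than Dazl, and 0.244% in LPS and 0.572% in PBS a higher value than Ddx4.

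A listed H3K9me3 peak holds at least 12 tags in LPS and 11 in PBS, so a gene with few H3K4me3 tags can enter this comparison only with a high ratio. Genes with at most 200 H3K4me3 tags near the start were therefore taken alone, a limit set after the values were seen. Of these, 10.2% had H3K9me3 there in LPS and 6.03% in PBS, with a median of 19 tags in each. By H3K9me3 tags Dazl ranked 4 of 566 in LPS and 2 of 213 in PBS, and Ddx4 10 of 566 in LPS and 31 of 213 in PBS. Sycp3, which also belongs to this class in LPS, had no H3K9me3 near its start.

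**Figure D4:**
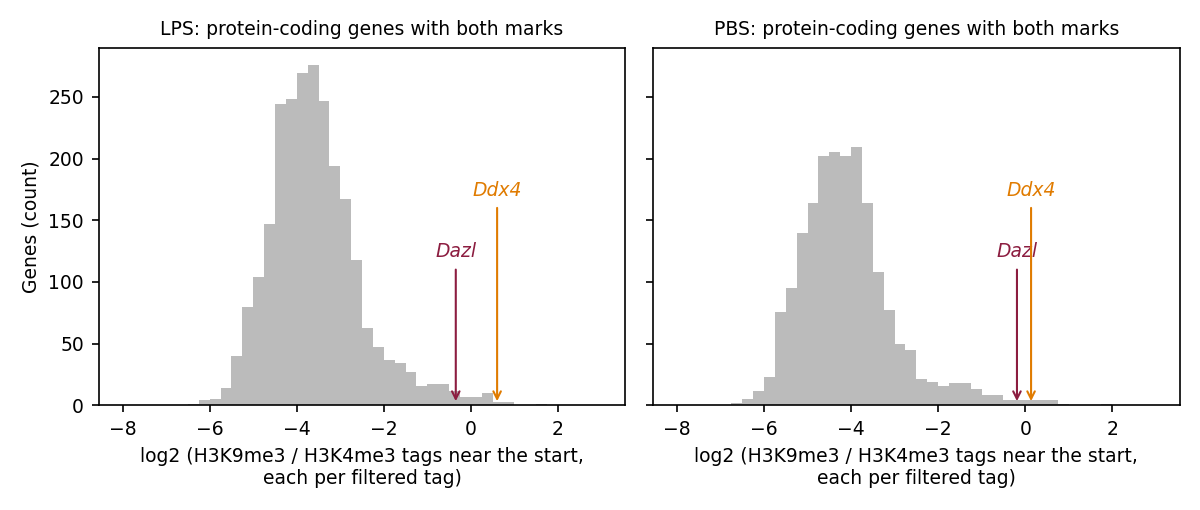
Number of genes (vertical axis) by the log2 ratio of H3K9me3 to H3K4me3 tags near the start, each per filtered tag (horizontal axis), for genes with both marks in LPS (left) and PBS (right). Arrows mark Dazl and Ddx4, which lie in the upper tail in both libraries, far above the medians of -3.68 in LPS and -4.20 in PBS.

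At Sycp1, Mael, Tdrd1 and Slc25a31 the H3K9me3 near the start stood without a listed H3K4me3 peak. Of 5995 genes with no H3K4me3 near a start in either list, 24 (0.400%) had H3K9me3 there in both lists, and 144 (2.40%) in at least 1. The class held 6 of the germline genes. Sycp1, Mael and Tdrd1 were among the 24, Slc25a31 was among the 144, and Stk31 and Tex101 were in neither. Genes without H3K4me3 mostly have CpG-poor promoters. Of the 230 with a CpG ratio of 0.6 or more, 6 (2.61%) had H3K9me3 near the start in both lists and 31 (13.5%) in at least 1, and Sycp1, Mael and Tdrd1 were 3 of those 6. Under a ratio of 0.6 the shares were 0.312% in both lists and 1.96% in at least 1.

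Of the 6 germline genes of that class, 5 had CACGTG in the window, and all but Stk31 of these had H3K9me3 near the start. Among all genes with no H3K4me3 there and a ratio of 0.6 or more, 11 of 35 with CACGTG (31.4%) had H3K9me3 near the start in at least 1 list, against 20 of 195 without it (10.3%). In both lists it was 8.57% with CACGTG and 1.54% without it. The germline genes are part of these counts. With the 10 left out, the shares in at least 1 list were 23.3% with CACGTG (7 of 30) and 10.3% without it (20 of 194), while those in both lists were 0.00% and 1.55%. Germline genes other than the 10 were not removed from these shares. For TCCCGC or GCGGGA, which Sycp1, Mael and Slc25a31 hold, the shares were 16.2% with it and 12.3% without it in at least 1 list, and 2.94% and 2.47% in both.

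Further germline genes were taken from 4 lists, 82 genes in all besides the 10, of which 66 had an annotated start. These lists too were chosen with earlier results of these data known, so they are no independent check. On whole bodies H3K9me3 was listed at 27 of 82 in LPS, against 28.1% of all genes, at 32 of 82 in PBS, against 25.6%, and at 23 of 82 in both, against 16.9%. Near starts 13 of 66 had it in both lists, against 7.04%. Genes of meiotic chromosomes had it in both lists at 6 of 20 starts and genes of the piRNA pathway at 4 of 14. Germ cell identity and RNA-binding genes had it at 3 of 17, and genes of sperm and spermatids at 0 of 16, with 1 of 16 in PBS only.

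**Figure D5:**
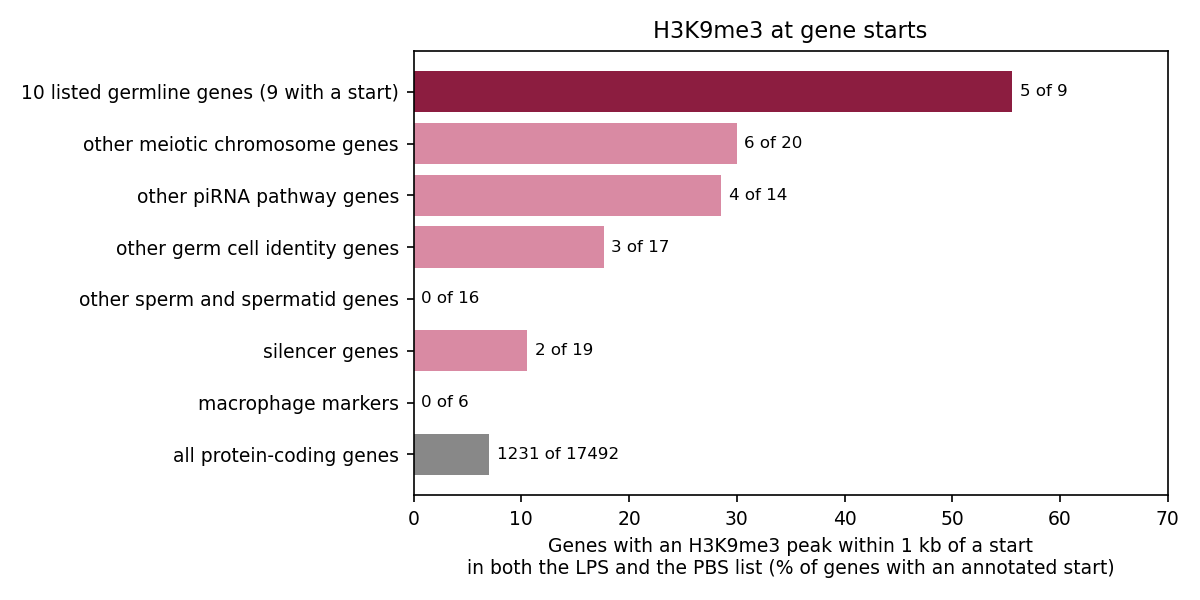
Share of genes with an H3K9me3 peak within 1 kb of a start in both lists (horizontal axis, percent of genes with an annotated start), with counts beside the bars. The listed germline genes (5 of 9) come first, then other germline genes by role, silencer genes, macrophage markers (0 of 6) and all protein-coding genes (1231 of 17492).

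Named by their H3K9me3 tags, the meiotic genes Tex12, a central element protein of the synaptonemal complex, and Meioc, which maintains the meiotic programme, had start peaks. Tex12 had 96 tags in LPS and 48 tags in PBS, where Il18 also lies under the peaks, and Meioc had 64 in LPS and 39 in PBS. The recombination gene Msh4 had 39 tags in LPS and 53 tags in PBS at its start. Mei4 (81 tags in LPS, 110 in PBS) and Prdm9, the methyltransferase that places meiotic recombination (97 tags in LPS, 75 in PBS), had none near a start.

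In the piRNA pathway, Tdrd5 had 37 tags in LPS and 40 tags in PBS at its start, and Gtsf1 had 24 in LPS and 18 in PBS. Henmt1, the methyltransferase of piRNA ends, had 23 in LPS and 20 in PBS there. Ddx25 had 30 in LPS and 14 in PBS at its start, where Pus3 also lies under the peaks. The helicase gene Tdrd9 (62 tags in LPS, 48 in PBS) had them away from its start. Among identity genes, Boll, a relative of Dazl, had 77 tags in LPS and 112 tags in PBS at the start, Ybx2, an RNA-binding protein of germ cells, 56 in LPS and 42 in PBS, and Tex19.1 34 in LPS and 32 in PBS. Tex14 had 31 tags at the start in LPS only, and Adad1 (42 tags in LPS, 23 in PBS) had them away from its start. Rad51c also lies under H3K9me3 peaks counted for Tex14. Of the sperm genes, Zpbp had 19 tags in LPS and 49 tags in PBS away from its start, while Odf2 at the start and Zpbp2 away from it had 15 tags each in PBS only.

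H3K4me3 at gene ends was listed for 40 of the 82 genes in LPS, against 61.5% of all genes, and 33 in PBS, against 63.3%. Among those with most tags were the meiotic genes Syce2 (207 tags in LPS, 277 in PBS), Msh5 (165 in LPS, 219 in PBS), Meiob (158 in LPS, 234 in PBS), Terb1 (133 in LPS, 187 in PBS) and Prdm9 (106 in LPS, 173 in PBS). In the piRNA pathway these were Tdrkh (186 in LPS, 255 in PBS), Tdrd5 (161 in LPS, 162 in PBS), Ddx25 (117 in LPS, 123 in PBS), Pld6 (86 in LPS, 144 in PBS) and Henmt1 (54 in LPS, 53 in PBS). Among identity genes these were Ybx2 (296 in LPS, 324 in PBS), Boll (168 in LPS, 196 in PBS), Tex14 (100 in LPS, 157 in PBS), and in LPS only Dppa3 (43) and Tex19.1 (42). Several peaks lay over other genes: Socs1 beside Tnp2 (631 tags, within 1 kb in LPS only), Tmem147 beside Gapdhs (230 in LPS, 318 in PBS), Rasip1 beside Izumo1 (231 in LPS, 199 in PBS), Rad51c beside Tex14 and Pus3 beside Ddx25. Odf2 (442 in LPS, 552 in PBS) and Zpbp2 (119 in LPS, 162 in PBS) had no other protein-coding gene under theirs.

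These genes too lay high on the ratio of the marks. Of the 13 with both marks near the start in LPS, all 13 lay above the median of all such genes, with a median of -1.28 against -3.68. In PBS 13 of 14 did, with a median of -1.79 against -4.20. Among genes with at most 200 H3K4me3 tags, 12 of 26 had H3K9me3 near the start in LPS, against 10.2%, and 11 of 21 in PBS, against 6.03%.

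The pattern most common among the 10 genes was H3K9me3 in both lists and no H3K4me3 at a gene end (Sycp1, Mael and Tdrd1). Of the 82 other germline genes 5 shared it: Tdrd9, Sycp2, Zpbp, Tdrd7 and Tex11. Away from the gene ends, Tdrd7 (222 tags in LPS, 313 in PBS) and Zpbp (94 in LPS, 161 in PBS) did have H3K4me3 near an annotated start. Of the 5, only Sycp2, the partner of Sycp3 in the chromosome axis, had H3K9me3 at its start in both lists. It held 58 H3K9me3 tags in LPS and 39 in PBS there, with no H3K4me3 near the start.

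Genes of the silencing machinery carried the mark of active promoters. Of 22 genes of the E2F6 and MGA complex, DNA methylation, H3K9 methylation and related factors, 20 had H3K4me3 at a gene end in both lists, against 60.3% of all genes. At gene ends the most tags were at Hdac1 (796 in LPS, 867 in PBS) and Ehmt2, which encodes G9a (611 in LPS, 803 in PBS). Cbx3, which encodes the H3K9me3 reader HP1 gamma, followed (543 in LPS, 714 in PBS). Marcksl1 and Hnrnpa2b1 lie under the peaks of Hdac1 and Cbx3. Dnmt1 and Dnmt3a, the maintenance and a de novo DNA methyltransferase, had none at the outer gene ends. Near annotated starts, however, Dnmt1 had 309 tags in LPS and 402 in PBS. Dnmt3a had 1182 in LPS and 1629 in PBS there, more than Hdac1 had at its ends. All 19 silencer genes with an annotated start had H3K4me3 near a start in at least 1 list, against 65.7% of all genes. Of these 19, 17 had a CpG ratio of 0.6 or more, against 48.4% of all windows, and the shares are not matched for this.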

How the data were processed

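The 4 peak lists were deposited 1 per library. Per the file headers, the authors called peaks with MACS 1.4.2 in each library alone, with no control library, a p threshold of 1e-05 and at most 1 tag kept at each position. The build is mm10, and CASAVA 1.4, Bowtie 0.12.8 and DiffBind are named with no role, per the submitters' processing notes. The deposited values are tag counts per peak, a score (minus 10 times the base 10 logarithm of the p-value) and a fold enrichment ratio over the caller's background, per the file headers.

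Peaks and genes were joined in Python 3.11.15 (pandas 2.3.3, SciPy 1.17.1) by an overlap of at least 1 bp, and the join and the intervals were checked on simulated data. Gene ends came from a RefSeq table of GRCm38.p6, and strands and starts from its promoter table. Of 21887 genes, 17492 had a start. The plan had been to count H3K9me3 on bodies; the counts near starts were added after the data had been seen. Ratios are tags per filtered tag, with exact 95% Clopper-Pearson intervals. Intervals cover counting error only. The 10 genes and all lists were chosen with earlier results of these data known, and shares of all genes stand in for tests, which 1 library per group does not allow. Of the wider lists, up to 5 genes with the most tags of each mark in each of the 4 lists are named. The silencer genes named are those without H3K4me3 at a gene end and the 3 with the most tags there. Of the T cell list, Trac is not a protein-coding entry and was left out. Alternatives were other windows, a score of 100 or more, summits in place of overlaps, lists of equal length and other scalings.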

Additional observations from a re-analysis of the deposited data

How the results depend on the processing

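The score threshold was the setting that moved counts. At a score of 100 or more, H3K9me3 was on 3 of the 10 germline genes in LPS (7.87% of all genes) and still on 5 in PBS (6.63%), and on 3 in both lists. Near a start it was 2 in both lists (1.54% of all genes). Of the 82 other germline genes, 12 had it in LPS and 14 in PBS. H3K4me3 was then at 1 germline gene in PBS, against 59.7% of all genes, and at 1 in both lists. The other windows and summits in place of overlaps kept these counts within 1.5 times of those reported, and so did lists of equal length, which were not run for the counts near a start. Of the ratios, Sycp1 over the gene changed sign per covered kb (-0.019) and Ddx4 was 0.50 per covered kb, below its interval. The other 19 recomputed ratios stayed within their intervals. No paired analysis was possible because each group has 1 library, and for the same reason no library could be left out. Peaks of 12 to 17 tags are the limit of depth here: the start peak of Tdrd1 and the peaks of Slc25a31, Sycp3 and Stk31 are near it. So are the start peak of Mael in LPS (17 tags) and the peaks listed in LPS only inside Sycp1 and Tdrd1.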

Other observations

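The 24 genes with H3K9me3 near a start in both lists and no H3K4me3 there were looked at after their values had been seen. Besides Sycp1, Mael and Tdrd1 they held 21 genes, of which 3 had a CpG ratio of 0.6 or more: Hic1, Stpg4 and Btbd18. Hic1, a tumour suppressor known to be methylated in cancers, had 154 tags in LPS and 134 tags in PBS, Stpg4 33 in LPS and 36 in PBS, and Btbd18, which in mouse testis promotes transcription of pachytene piRNA precursors, 16 in LPS and 21 in PBS. Sycp2 (58 tags in LPS, 39 in PBS) and H3f4 (47 in LPS, 44 in PBS) were also among the 21, as were the zinc finger genes Zfp979 (36 in LPS, 50 in PBS) and Zfp600 (29 in LPS, 41 in PBS). The most tags were at C130026I21Rik (256 in LPS, 528 in PBS) and Gm40364 (348 in LPS, 313 in PBS), and Sycp1, Mael and Tdrd1 ranked 17 or lower of the 24 by tags.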
